A study of Mus musculus with 14 samples.

Results

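Convergent poly(A) sites whose transcripts overlap tail to tail were examined in 3T3 cells, a mouse fibroblast line. A pair was formed by a plus-strand site and the nearest minus-strand site on the same chromosome that lay upstream of it in plus-strand direction by 1 to 1000 nt, so that the last bases of one transcript are complementary to the last bases of the other. Both sites had to hold 30 or more reads over the 2 control libraries. The rule gave 203 pairs, made of 203 plus-strand and 160 minus-strand sites, or 363 of the 16454 sites with 30 or more control reads and of the 33590 sites in the deposited table. Without the count requirement, 543 plus-strand sites had such a partner. Pairs that lay within 2000 nt of each other were joined into 158 convergent loci, of which 119 held 1 pair and the fullest held 4. The 203 pairs are not independent of each other, since 38 minus-strand sites were shared by 81 pairs.

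A poly(A) site is the position at which a pre-mRNA is cleaved and given its poly(A) tail, and it therefore sets the 3' end of the mRNA. Genes on opposite strands that point at each other share the stretch in which both end, and where each transcript runs past the other's end the 2 mRNAs carry complementary 3' ends. Such antisense ends are known for the possibility of pairing with each other and for RNA polymerases that meet head on, neither of which these counts measure.

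The study read the 3' ends of poly(A)-selected RNA by 2P-Seq, an assay that primes on the poly(A) tail and counts reads per poly(A) site. Its 12 libraries analysed here all came from 3T3 cells: 2 controls from untreated cells, single libraries from cells kept in actinomycin D (10 µg/ml) for 1, 2, 4 and 8 h, and 6 fractions of 1 sucrose gradient, whose columns are named 0, 1, 2.5, 4.5, 7.5 and 12. Actinomycin D stops transcription, so reads lost with time follow decay. In the gradient, mRNAs with more ribosomes sediment further. Only the 2 controls are replicates, and nothing says that they came from separate cultures, so p-values cover the scatter of 6 libraries about a fitted line, and that scatter may be technical. Fraction 0 had the fewest counts, 1663346, and fraction 12 the most, 11575417, and the members took between 0.963% and 1.62% of a library. The 2 controls differed from each other at the sites with 200 or more control reads with an SD of 0.41 on the log2 scale. Sites are given by mm9 position, since the deposited table does not pair them with genes. For the same reason the cell type was not checked against marker genes.

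Most overlaps were short. Their lengths ran from 1 to 977 nt with a median of 84 nt and quartiles of 33 and 256 nt, and 116 pairs (57.1%) overlapped by up to 100 nt. Counted over all plus-strand sites with 30 or more control reads, the nearest minus-strand end lay within 1000 nt on the far side of a gap for 506 sites and on the overlapping side for 203, and 56 sites counted in both. Within 100 nt of each other the counts were equal, 116 with a gap and 116 with an overlap. At greater distances pairs with a gap were the more numerous, and the median gap over all 506 sites was 338 nt. Pairs lay on 20 chromosomes, and chromosome 11 had the most, 25. On the inner side of the limits stood a chromosome 4 pair with 977 nt of overlap (plus site 48444804, minus site 48443827) and another on chromosome 4 whose lower partner had 30 control reads (plus site 124526619, minus site 124526318). On the outer side were a chromosome 8 pair 1005 nt apart (plus site 34730249, minus site 34729244) and a chromosome 7 pair whose lower partner had 29 reads (plus site 140912820, minus site 140912791).

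**Figure D1:**
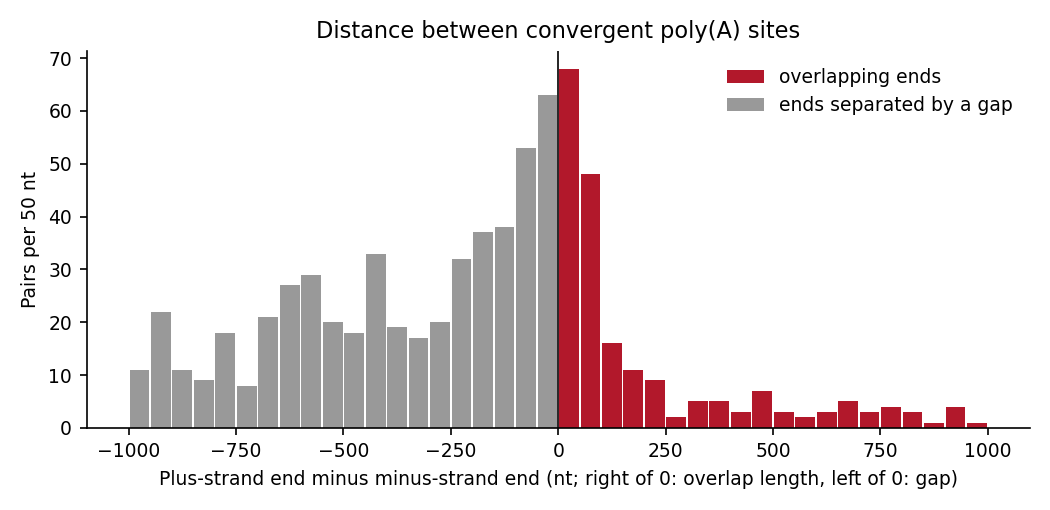
Number of pairs of convergent poly(A) sites per 50 nt (vertical axis) against the distance of the plus-strand end past the minus-strand end in nt (horizontal axis); red bars are overlaps, grey bars are gaps. The 68 overlaps of up to 50 nt stand beside 63 gaps of up to 50 nt, and past 100 nt the counts of both fall, to 16 overlaps and 38 gaps at 101 to 150 nt.

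Taken site by site, the members were close to other sites in level, decay and ribosome load. Levels are given as CPM, a site's reads scaled to a library total of 1000000 reads over all sites. The median over the 363 members was 15.7 CPM in the controls, against 16.5 over all sites with 30 or more control reads, and the members ran from 2.47 to 834 CPM. In the authors' deposited table, half-lives of the 360 members with a value had a median of 2.86 h, quartiles of 1.59 and 4.68 h and a range of 0.365 to 50 h, against a median of 2.87 h over all such sites. Ribosomes per mRNA in the same table had a median of 6.5 over 362 members (range 1.74 to 9.74), against 6.41. The rule favours ends that reach far along their strand, so their place among neighbouring ends is a description only. Ends of 1 strand within 2000 nt of each other were joined into a cluster, and 276 members (76.0%) were the last end of their cluster, against 63.9% of all such sites. Members were the only end of their cluster in 42.7% of cases, against 41.5%.

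After actinomycin D, 108 of 356 members tested fell relative to the rest of the library and 54 rose (edgeR quasi-likelihood test of a slope on hours, Benjamini-Hochberg adjusted over all sites). The members' shares were 30.3% and 15.2%, beside 28.2% and 20.8% of all 16913 sites tested. These directions depend on the scaling. With the factors printed in the deposited file in place of edgeR's, the median slope of all sites moved to -0.18 log2 per h, and 208 members fell while 5 rose, beside 52.7% and 2.71% of all sites. In bulk libraries such as these, fewer cells and less RNA per cell cannot be told apart. Over the gradient 15 of 348 members tested fell towards the higher-numbered fractions (4.31%, beside 4.28% of all sites) and 3 rose (0.862%, beside 0.438%).

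The next comparison asks whether the 2 partners of an overlapping pair resemble each other or stand in opposition. In the untreated cells they were nearly unrelated in level. Spearman's rho between the partners' control CPM was 0.16 over 203 pairs and 0.213 with 1 pair per locus, and it was -0.041 over the 102 pairs with 100 or more control reads in each partner. Over all 8315 pairs of a plus-strand site with its overlapping or otherwise nearest minus-strand site it was 0.0165. Most of these, 6431, joined sites over 10000 nt apart. Over the 450 that faced each other across a gap of up to 1000 nt, rho was 0.0263. The points share libraries and, in part, minus-strand sites. Partners differed by a median of 1.61 on the log2 scale, against 1.85 over all pairs. They were over 4-fold apart in 38.4% of overlapping pairs and within 2-fold in 31%, against 46.7% and 28.4% of all pairs.

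Pairs with the most reads showed both extremes, a nearly silent partner and a balanced one. The pair with the most control reads lay on chromosome 11 and overlapped by 67 nt (plus site 70791423, minus site 70791356). The minus-strand end stood at 887 and 782 CPM in the controls and at 828, 1007, 846 and 752 CPM after 1, 2, 4 and 8 h. The plus-strand end stood at 4.11 and 4.2 CPM (24 and 27 reads) and then at 1.64, 4.78, 0.396 and 0.742 CPM. The minus partner was thus 201-fold higher in the controls, and the values of the 2 ends did not overlap. Their slopes differed by 0.36 ± 0.12 log2 per h (edgeR adjusted p = 0.0363), and that call was lost in 4 of 9 alternative settings (adjusted p up to 0.0994). The reverse order of levels held for a chromosome 8 pair with 24 nt of overlap (plus site 86247173, minus site 86247149). Its plus-strand end stood at 722 and 660 CPM in the controls and at 806, 908, 866 and 762 CPM after treatment. Its minus-strand end stood at 4.11 and 1.71 CPM and then at 4.91, 1.88, 3.57 and 2.22 CPM. The plus partner was 238-fold higher, the largest ratio among the 203 pairs. The slopes of these 2 ends differed by -0.06 ± 0.09 log2 per h (SE), with a 95% interval of -0.26 to 0.13, so a difference was not detectable (edgeR adjusted p = 0.57).

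Other strongly one-sided pairs had smaller ratios. On chromosome 17, the plus end of a pair with 3 nt of overlap (plus site 56240018, minus site 56240015) was 32.2-fold higher than its partner. The plus end held 106 and 111 CPM in the controls, and the minus end 3.76 and 2.95 CPM, and their slopes after actinomycin D differed by -0.51 ± 0.13 log2 per h (edgeR adjusted p = 0.00834, and 0.0664 without the 8 h library). On chromosome 2, a plus end overlapping by 16 nt (plus site 105805579, minus site 105805563) held 138 and 135 CPM against 4.45 and 5.13 CPM, 28.6-fold more. On chromosome 16, a minus end overlapping by 191 nt (plus site 18407164, minus site 18406973) held 135 and 125 CPM against 3.59 and 3.26 CPM, 38.0-fold more. One-sided pairs were thus found at overlaps from 3 to 927 nt and with either strand as the higher one.

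Balanced pairs with many reads were also present. A chromosome 10 pair with 16 nt of overlap (plus site 126504361, minus site 126504345) had 212 and 234 CPM at its plus end and 268 and 255 CPM at its minus end in the controls, a ratio of 1.17. After 1, 2, 4 and 8 h of actinomycin D the plus end held 294, 410, 359 and 352 CPM. The minus end held 225, 249, 215 and 165 CPM. The plus end was the lower one in both controls and the higher one in all 4 treated libraries, with a slope difference of -0.16 ± 0.05 log2 per h (edgeR adjusted p = 0.0335). That call was lost without control 1, control 2, the 4 h or the 8 h library (adjusted p of 0.087, 0.0819, 0.0559 and 0.0675), and the value was -0.25 without the 8 h library.

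**Figure D2:**
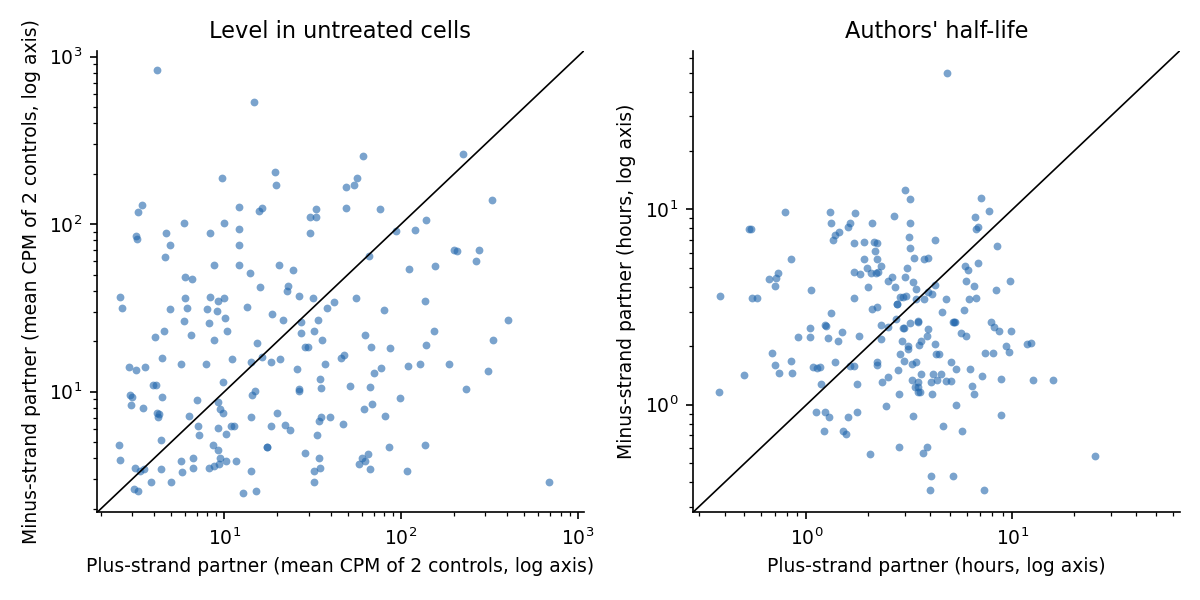
Level in untreated cells (left, mean CPM of the 2 controls) and the authors' half-life in hours (right) of the minus-strand partner (vertical) against the plus-strand partner (horizontal), 1 point per overlapping pair, all axes logarithmic, with the line of equality. Points spread widely on both sides of the line in both panels, with a rho of 0.16 for levels and -0.116 for half-lives.

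Decay of one partner said little about decay of the other. In the authors' deposited table, partner half-lives had a Spearman's rho of -0.116 over 200 overlapping pairs (-0.0589 with 1 pair per locus). It was 0.03 over all pairs and -0.077 over 445 pairs facing across a gap of up to 1000 nt. The half-lives were 2-fold or more apart in 56.5% of overlapping pairs and 56.9% of all pairs, and the median fold between partners was 2.21 against 2.29. Ribosomes per mRNA of the partners had a rho of 0.086 over 202 pairs, against 0.0135, and differed by a median of 1.34 ribosomes, against 1.52.

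The same was tested on counts within each library. For every pair the slope on hours of the minus partner was compared with that of the plus partner, in a model with a term per library, so that no scaling between libraries enters. A difference of 0.125 log2 per h amounts to a 2-fold divergence over 8 h. Of 194 overlapping pairs tested, 84 (43.3%) had partners whose slopes differed, beside 44.3% of all 7851 pairs tested (edgeR quasi-likelihood test, adjusted p under 0.05 over all pairs). The minus partner was lost faster in 40 and slower in 44, beside 21.4% and 22.8% of all pairs. The members' share is near that of all pairs, and it was 49.1% over 436 pairs facing across a gap of up to 1000 nt. In 65 pairs (33.5%, beside 31.6% of all pairs) the whole 95% interval lay beyond a 2-fold divergence over 8 h, and in 0 pairs (beside 0.56% of all pairs) did it lie wholly within, the interval reaching a median of 0.207 log2 per h to either side. At this precision a pair that decays alike could rarely be shown to do so, whether its ends overlap or not.

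Sorted by what each partner did on its own, both fell in 19 pairs (9.79%, beside 9.85% of all pairs) and both rose in 4 (2.06%, beside 4.43%). One fell while the other rose in 25 pairs (12.9%, beside 12%). Only 1 of the partners was called in 81 pairs (41.8%, beside 49.8%), and neither in 65 (33.5%, beside 23.9%). This sorting rests on edgeR's scaling. With the factors printed in the deposited file 5 of 356 members rose and 208 fell, and the pairs were not sorted again with them. The lower partner, by its mean CPM over the gradient libraries, which the slopes do not use, fell the faster in 99 of 194 pairs (51.0%, beside 53.2% of all pairs). Of the 84 called pairs it was the faster in 38 (45.2%, beside 56.4% of all called pairs).

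The pairs that came apart furthest had one end that was all but gone at 8 h and one that held. On chromosome 5, a pair overlapping by 672 nt (plus site 147767180, minus site 147766508) had a minus end at 9.41 and 11.7 CPM in the controls and 4.42, 1.88, 0.396 and 0 CPM after 1, 2, 4 and 8 h. Its plus end held 37.0 and 33.6 CPM in the controls and then 59.1, 62.0, 49.7 and 40.5 CPM. The minus end was below the controls in each treated library and the plus end above them in each, with a slope difference of -1.41 ± 0.15 log2 per h (edgeR adjusted p = 0.000253). Half-lives in the authors' deposited table were 0.731 h for the minus end and 5.69 h for the plus end.

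The mirror image was seen on chromosome 15 at 449 nt of overlap (plus site 58731935, minus site 58731486). There the plus end fell from 66.6 and 53.3 CPM to 31.4, 7.51, 2.77 and 0.247 CPM. The minus end, with 11 and 40 control reads, held 1.88 and 6.22 CPM and then 4.09, 5.12, 4.36 and 6.67 CPM. The end that was 14.8-fold higher in the controls was the lower one at 4 and 8 h, and the slopes differed by 1.15 ± 0.15 log2 per h (edgeR adjusted p = 0.000408).

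Partners with overlaps of a few bases also came apart. On chromosome 6, with 4 nt of overlap (plus site 124760612, minus site 124760608), the plus end went from 12.5 and 9.48 CPM to 3.11, 1.02, 1.19 and 0 CPM. The minus end went from 14.5 and 16.9 CPM to 18.7, 21.5, 21.8 and 22.7 CPM. The ends were 1.43-fold apart in the controls and their values did not overlap after treatment, with a slope difference of 1.07 ± 0.18 log2 per h (edgeR adjusted p = 0.00135). On chromosome 9, with 28 nt of overlap (plus site 107954031, minus site 107954003), the plus end held 4.79 and 3.42 CPM in the controls and 5.24, 2.56, 0.396 and 0 CPM after treatment. Its minus partner held 9.93 and 12.1 CPM and then 13.3, 20.8, 17 and 13.8 CPM. The plus end was near its control level at 1 h and had 0 reads at 8 h, and the difference was 0.95 ± 0.17 (edgeR adjusted p = 0.00164). On chromosome 4, with 301 nt of overlap (plus site 124526619, minus site 124526318), the plus end went from 9.75 and 15.7 CPM to 3.93, 3.24, 1.39 and 0 CPM. Its partner, the member with the fewest control reads, stayed between 1.24 and 3.08 CPM, and the difference was 0.87 ± 0.18 (edgeR adjusted p = 0.00362).

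A chromosome 7 locus held 2 plus ends that overlapped the same minus end (site 19941715) by 157 and 135 nt. The farther plus end (site 19941872) rose from 182 and 191 CPM to 244, 360, 373 and 422 CPM. The nearer one (site 19941850) went from 36.1 and 37.9 CPM to 44.0, 69.8, 63.2 and 74.4 CPM. Their shared partner fell from 13.7 and 15.5 CPM to 13.3, 4.95, 1.98 and 0.494 CPM. Both plus ends stood above their controls, and the minus end below its own, in all 4 treated libraries, and the slope differences were -0.88 ± 0.09 and -0.83 ± 0.10 log2 per h (edgeR adjusted p = 0.000245 and 0.000325), which are not independent since the minus end is the same. On chromosome 8, at 44 nt of overlap (plus site 47082307, minus site 47082263), the minus end went from 9.24 and 5.75 CPM to 2.45, 0.341, 0 and 0.494 CPM. The plus end ran from 2.4 and 5.91 CPM in the controls to 7.85, 4.78, 5.35 and 11.1 CPM, and the difference was -0.89 ± 0.25 (edgeR adjusted p = 0.0153). These 8 pairs kept an adjusted p under 0.05 in every alternative that could be run for them. The chromosome 8 value was -2.36 without the 8 h library, and its highest p, without control 2, was 0.0493. The chromosome 6 value was 1.85 without the 4 h library.

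**Figure D3:**
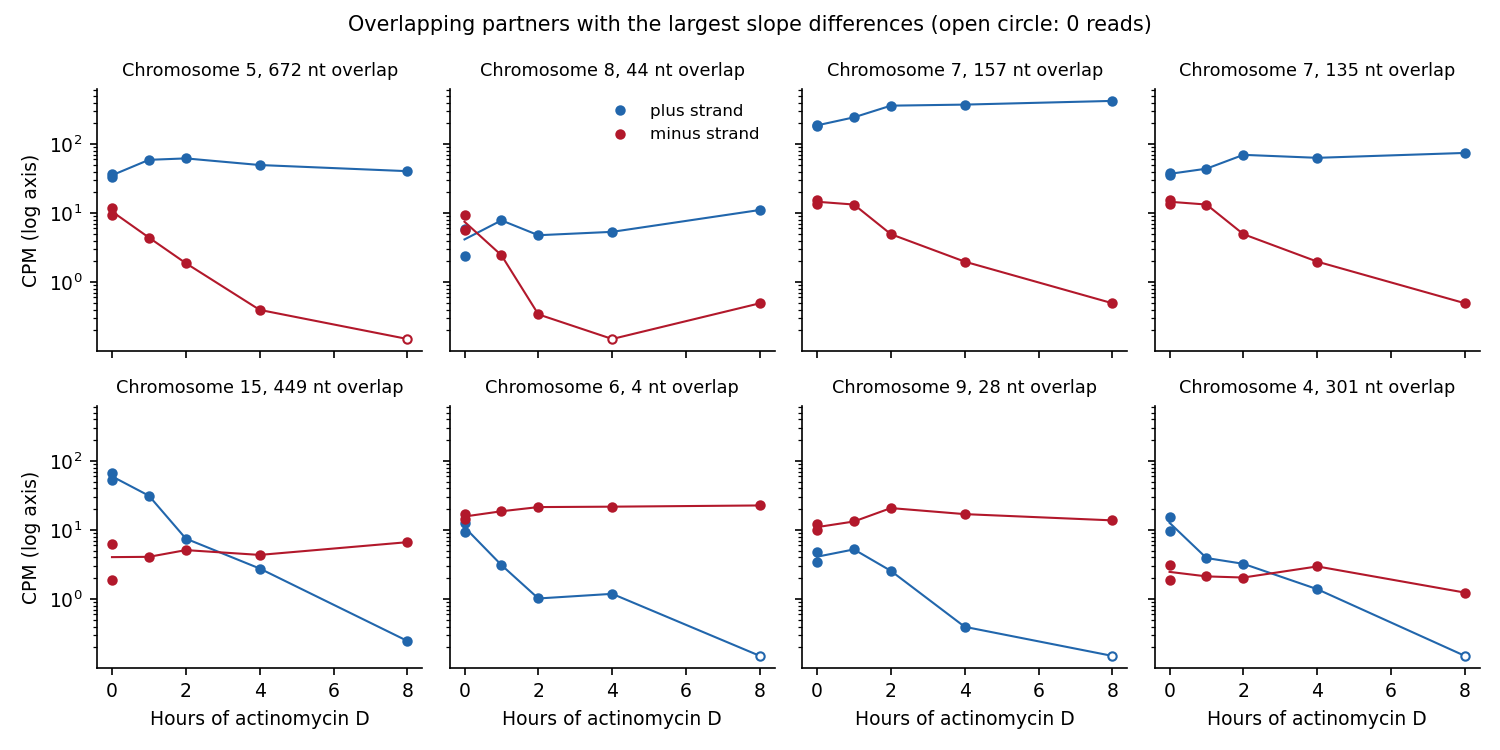
CPM (vertical, log axis) against hours of actinomycin D (horizontal) for the plus-strand (blue) and minus-strand (red) ends of the 8 pairs with the largest slope differences, 4 in each direction; points are libraries, with both controls at 0 h, lines join the mean control to the single treated libraries, and an open circle marks 0 reads, drawn at the foot of the axis. In each panel one end drops steeply while its partner stays level or climbs.

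Among the deeper pairs, a chromosome 17 pair with 927 nt of overlap (plus site 15082940, minus site 15082013) joined an abundant stable end to a short-lived one. The plus end held 13 and 16.3 CPM in the controls and fell to 6.22, 2.22, 1.19 and 0.247 CPM. The minus end held 422 and 646 CPM and then 461, 459, 518 and 444 CPM. The ratio of 36.4 in the controls widened at every time, with a slope difference of 0.85 ± 0.10 log2 per h (edgeR adjusted p = 0.000324). On chromosome 19, with 70 nt of overlap (plus site 6053710, minus site 6053640), the ends were 1.3-fold apart in the controls, at 124 and 116 CPM for the plus end and 94.0 and 91.2 CPM for the minus end. After treatment the plus end held 42.7, 18.4, 12.1 and 5.44 CPM. The minus end held 79.2, 110, 90.1 and 64.8 CPM. The plus end was the higher one only before treatment, and the slopes differed by 0.52 ± 0.10 log2 per h (edgeR adjusted p = 0.00299), or by 0.89 without the 8 h library. On chromosome 5, with 78 nt of overlap (plus site 77778348, minus site 77778270), the plus end went from 145 and 132 CPM to 137, 102, 89.5 and 40.5 CPM and the minus end from 94.1 and 118 CPM to 140, 134, 141 and 177 CPM. These ends crossed between the controls and 1 h, and the difference was 0.30 ± 0.05 (edgeR adjusted p = 0.00117).

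Of the 19 pairs in which both ends fell, the 3 with the largest mean slope are described. On chromosome 11, with 93 nt of overlap (plus site 84724620, minus site 84724527), the plus end fell from 20 and 25.5 CPM to 14.2, 7.51, 4.16 and 1.98 CPM. The minus end fell from 41.4 and 38.5 CPM to 34.7, 12.3, 5.15 and 0 CPM. Both were lower at each later time, and the slope difference of -0.39 ± 0.15 log2 per h did not pass (edgeR adjusted p = 0.0507), while it passed by DESeq2 (0.0267) and without control 2 or the 4 h library (0.0441 and 0.0363). It did not pass without control 1, the 1 h or the 2 h library (edgeR adjusted p = 0.0813, 0.0737 and 0.0585). Without the 8 h library, where the minus end had 0 reads, the value shrank to -0.13 (edgeR adjusted p = 0.553). In a chromosome 1 pair with 65 nt of overlap (plus site 58520381, minus site 58520316) the difference was 0.68 ± 0.23 (edgeR adjusted p = 0.032), and the call was lost by DESeq2 (0.0538) and without the 4 h or 8 h library (0.0736 and 0.0962). In a chromosome 7 pair with 34 nt of overlap (plus site 86843018, minus site 86842984) it was 0.54 ± 0.20 (edgeR adjusted p = 0.0457), and the call was lost without control 1, control 2, the 1 h, 2 h or 8 h library (adjusted p from 0.0579 to 0.167), while the value was 1.07 without the 4 h library. In both the plus end was at 0 reads at 8 h while the minus end still held reads.

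Both ends rose in 4 pairs, of which the 3 with the largest mean slope overlapped by 2, 7 and 61 nt. A rise here is relative to the rest of the library by edgeR's scaling, not by CPM. The scaling factors went from 1.19 and 1.26 in the controls to 0.684 at 8 h, which lifts late values above their CPM. A chromosome 2 pair with 2 nt of overlap (plus site 174252997, minus site 174252995) had a plus end at 24.5 and 21.6 CPM in the controls and 35.2, 28.0, 31.1 and 30.4 CPM after treatment. Its minus end held 45.7 and 40.1 CPM and then 50.2, 45.2, 55.5 and 67.0 CPM. The slopes differed by 0.04 ± 0.06 log2 per h, with a 95% interval of -0.08 to 0.16 (edgeR adjusted p = 0.577). The others were a chromosome 7 pair with 7 nt of overlap (plus site 30032547, minus site 30032540), whose difference was 0.19 ± 0.06 (edgeR adjusted p = 0.0278, but 0.0565 without control 1 and 0.834, at 0.04, without the 8 h library), and a chromosome 2 pair with 61 nt (plus site 164665081, minus site 164665020), at 0.02 ± 0.07 (edgeR adjusted p = 0.808). In CPM the plus end of the chromosome 7 pair held 71.4 and 69.3 in the controls and then 81.2, 96.1, 104 and 74.2.

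Overlap length was next set against the differences between partners. It was unrelated to the level ratio, with a Spearman's rho of 0.018 over 203 pairs, and weakly negative with the level of the lower partner (-0.16) and of the higher partner (-0.16). With the size of the half-life ratio rho was 0.17 over 200 pairs, with the size of the slope difference after actinomycin D 0.15 over 194, with the size of the ribosome difference 0.071 over 202 and with that of the gradient slope difference 0.048 over 187. In the authors' deposited table, half-lives were 2-fold or more apart in 45.2% of pairs with 1 to 30 nt of overlap, 50% with 31 to 100 nt, 60.5% with 101 to 300 nt and 72.9% with 301 to 1000 nt. With 1 pair per locus these shares were 45.7%, 47.4%, 59.3% and 69.4%. The levels of the partners fell along the same order in part. The median plus-end level was 28.5 CPM in the shortest bin and 14.7 CPM in the longest, the median minus-end level 15.9 and 10.5 CPM, and the part of level in the half-life shares was not tested. The share called by the test on counts was flatter, at 39.5%, 43.5%, 43.2% and 46.7% in the same bins, beside 44.3% of all pairs. The median size of the slope difference was 0.155, 0.247, 0.227 and 0.259 log2 per h in these bins, against 0.227 over all pairs.

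The extremes of length show the spread at either end. The longest overlap, 977 nt on chromosome 4 (plus site 48444804, minus site 48443827), had slopes that differed by 0.13 ± 0.14 log2 per h (edgeR adjusted p = 0.488). The second longest, 949 nt on chromosome 12 (plus site 66164371, minus site 66163422), differed by 0.32 ± 0.06 (edgeR adjusted p = 0.00152, and 0.0599 without the 8 h library). Its minus end rose from 168 and 243 CPM to 340, 311, 385 and 434 CPM, and its plus end went from 12.5 and 26.3 CPM to 21.8, 15.4, 16.6 and 5.93 CPM. At 1 nt, the chromosome 10 pair (plus site 79781000, minus site 79780999) differed by 0.46 ± 0.17 (edgeR adjusted p = 0.0499), which passed barely: the p was 0.0742 by DESeq2, 0.0505 with 30 counts per partner and 0.182 without the 8 h library. The plus end of that pair had 0 reads in all 6 gradient libraries, although it held 17 and 26 reads in the controls, while its partner held 6 to 150 reads in every fraction. The chromosome 2 pair with 1 nt of overlap (plus site 164618269, minus site 164618268) differed by 0.14 ± 0.12 (edgeR adjusted p = 0.363).

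**Figure D4:**
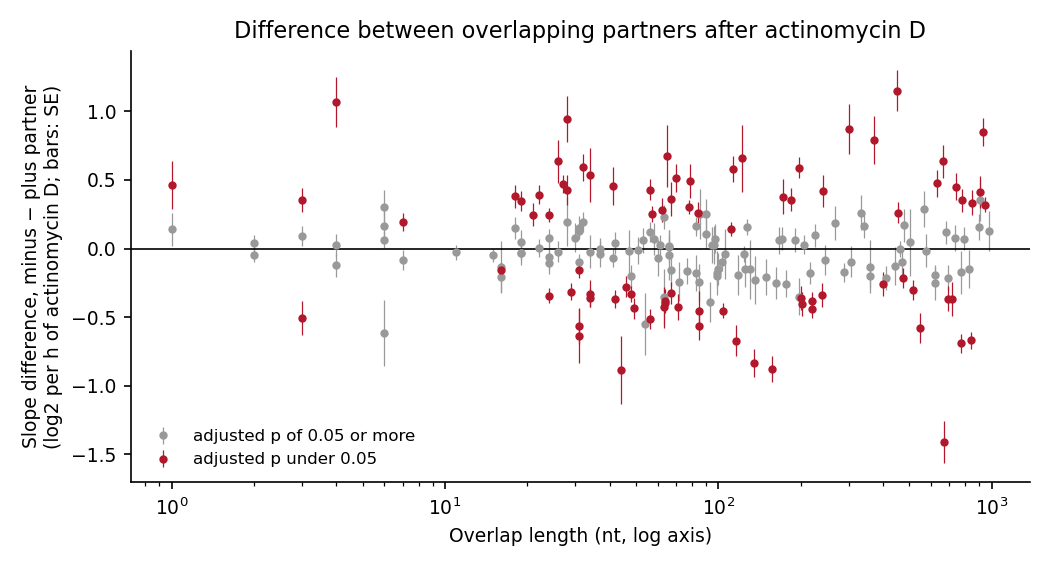
Slope difference between minus-strand and plus-strand partners in log2 per h of actinomycin D (vertical, bars are SE) against overlap length in nt (horizontal, log axis), for the 194 pairs tested, with the 84 pairs at adjusted p under 0.05 in red. Called pairs lie on both sides of 0 at short and at long overlaps.

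Across the sucrose gradient, few pairs were called, by a test with wide intervals. In the authors' deposited table, partners were 2 or more ribosomes apart in 32.2% of overlapping pairs, against 38% of all pairs. Of 187 pairs tested, 1 (0.535%) had partners whose slopes over the ranked fractions differed, beside 2.69% of all 7850 pairs (edgeR quasi-likelihood test, adjusted p under 0.05). In it the minus partner had the lower slope, as in 1.54% of all pairs. In 0 pairs did the minus partner have the higher slope (beside 1.15%). In all, 31 pairs (16.6%, beside 17.6%) had an unadjusted p under 0.05. DESeq2 called 13 (6.95%, beside 9.71%). The 95% interval reached a median of 0.521 log2 per fraction step to either side, against 0.2 for a 2-fold divergence over the 5 steps, so divergence of that size was mostly not detectable. The called pair lay on chromosome 8 with 478 nt of overlap (plus site 32270557, minus site 32270079). From fraction 0 to fraction 12, its plus end held 0.601, 0.958, 3.15, 6.52, 15.4 and 14.1 CPM. Its minus end held 22.8, 37.9, 20.1, 26.1, 43.3 and 19.2 CPM. The plus end thus climbed to the heavier fractions while the minus end had no such order, with a difference of -1.01 ± 0.25 log2 per step (edgeR adjusted p = 0.0397). The call rested on single libraries: without fraction 1, 2.5 or 7.5 the adjusted p was 0.245, 0.0522 or 0.122.

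Some pairs that did not pass the test still differed in where their reads lay. At the chromosome 7 locus described above, the plus end at 19941872 held 1781 CPM in fraction 0 and 104, 71.7, 105, 47.0 and 29.3 CPM in the others. The minus end at 19941715 held 17.4, 26.4, 17.7, 12.1, 23.5 and 32.8 CPM. Their ribosomes per mRNA in the authors' deposited table were 1.74, the lowest of all members, and 6.77, but the slope difference of 1.03 ± 0.33 log2 per step did not pass (edgeR adjusted p = 0.107). At the chromosome 2 pair with 16 nt of overlap, the plus end at 105805579 peaked in fraction 1, with 120, 454, 245, 62.0, 24.8 and 27.6 CPM. The minus end at 105805563 held 1.2, 0.719, 3.45, 10.5, 10.1 and 2.94 CPM and peaked in fraction 4.5. The plus end fell on its own, with a slope of -1.0 log2 per step (edgeR adjusted p = 0.0121), and the difference between the ends was 1.34 ± 0.38 log2 per step (edgeR adjusted p = 0.0692).

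Ends on the same strand allow an overlapping end to be compared with a neighbour. Whether the 2 ends belong to 1 transcript unit was not checked, since sites were not paired with genes. For each overlapping end, the next end upstream on its own strand within 2000 nt was taken where that end overlapped no site of the other strand with 30 or more control reads, so that by mapped position the distal end carries complementary sequence and the proximal one does not. This comparison was chosen after the data were seen. There were 103 such distal ends, and their median distance from the proximal end was 406 nt, against 208 nt for 5744 same-strand neighbours of which neither end overlapped. By the half-lives of the authors' deposited table, the overlapping distal end was the shorter-lived in 66 of 100 (66.0%), against 55.1% of the neighbours without overlap. The distal ends were also the weaker ones, with a median log2 ratio to the proximal end of -0.19 in the controls, against 0.25, and the part of distance and level in this difference was not tested. On counts, the distal end was lost faster in 3 of 97 pairs tested (3.09%, beside 1.91% of all 5588 same-strand neighbours) and slower in 0 (beside 0.644%) by edgeR, and at an unadjusted p under 0.05 in 20 and 5 (20.6% and 5.15%, beside 13.6% and 7.34%). DESeq2 called 5 lost faster (5.15%, beside 4.97%), and without control 2, the 4 h library or the 8 h library edgeR called 0 at that threshold (beside 0%, 0.31% and 0.0902%), with 17, 20 and 14 lost faster at an unadjusted p under 0.05. Over the gradient the slope of the distal end was called lower in 0 of 97 (beside 0.0538%) and higher in 0 (beside 0.197%) by edgeR. At an unadjusted edgeR p under 0.05 it was lower in 5 and higher in 7.

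Both strands of 1 chromosome 11 locus were among the 3. Its plus-strand end at 100953519 and minus-strand end at 100953477 overlap by 42 nt, each is the distal one of its strand, and each has a proximal neighbour (100952828 on the plus strand, 100953520 on the minus strand) that stops short of the other strand's ends. The minus-strand neighbour does so barely, since 100953520 is the position next to the plus-strand end at 100953519. On the plus strand the distal end took 65.5% and 66.2% of the reads of the 2 ends in the controls and 53.8%, 40.0%, 35.8% and 17.9% after 1, 2, 4 and 8 h (308 and 270 reads in the controls, 22 at 8 h). The minus-strand distal end took 29.7% and 31.9% in the controls and 15.9%, 15.5%, 9.32% and 5.66% after treatment (104 and 100 reads, 9 at 8 h). Each share was below both controls in all 4 treated libraries. The slope differences, distal less proximal, were -0.39 ± 0.05 log2 per h on the plus strand and -0.38 ± 0.07 on the minus strand (edgeR adjusted p = 0.018 and 0.0341). Half-lives in the authors' deposited table were 1.13 h for the plus-strand distal end against 5.6 h for its proximal neighbour, and 1.55 h against 5.88 h on the minus strand. The overlapping ends themselves fell together: their slopes were -0.28 and -0.24, and differed by 0.04 ± 0.08, with a 95% interval of -0.14 to 0.22. The third was a chromosome 13 plus-strand end (113658090, 111 nt past the minus-strand end at 113657979), whose share against its proximal neighbour at 113657974 went from 71.2% and 75.2% to 71.7%, 64.9%, 59.3% and 47.8%, with a slope difference of -0.21 ± 0.03 (edgeR adjusted p = 0.0283). That neighbour, too, stops only a few nt short of the minus-strand end.

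**Figure D5:**
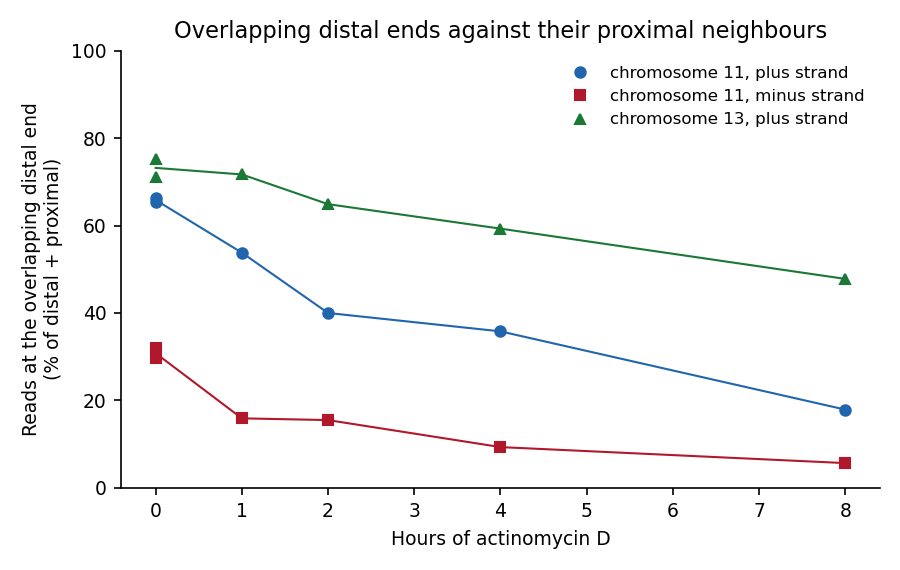
Share of reads at the overlapping distal end, in percent of distal plus proximal reads (vertical), against hours of actinomycin D (horizontal) for the 3 same-strand neighbours called; points are libraries, with both controls at 0 h, and lines join the mean control to the treated libraries. The chromosome 11 shares drop on both strands, from 65.5% and 66.2% to 17.9% and from 29.7% and 31.9% to 5.66%.

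Leaving out single libraries cost the chromosome 11 calls their threshold but not their direction. Over DESeq2 and the 6 fits without 1 library, the plus-strand difference ran from -0.48 to -0.37 with adjusted p from 8.31e-06 to 0.128, and it did not pass without control 2, the 4 h or the 8 h library. The minus-strand difference ran from -0.53 to -0.34 with adjusted p from 0.00167 to 0.126, and it passed only by DESeq2 and without the 1 h library. For the chromosome 13 end the range was -0.24 to -0.19 with adjusted p from 0.00112 to 0.2, and it did not pass without control 2, the 1 h, the 4 h or the 8 h library.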

How the data were processed

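Per the file headers, the authors deposited raw read counts per poly(A) site for 12 2P-Seq libraries, with mm9 positions. Bowtie and mm9 are named in the submitters' processing notes, which give Bowtie without a version. The 2 3P-Seq samples of the 14 in the series were not analysed here. Each site also carries a half-life and a number of ribosomes per mRNA that the authors deposited. For 359 of 359 members the rate behind the half-life equalled that of an exponential fit on hours plus 0.1 per h, within 0.001, so it was read in hours, no fall gives 6.93 h, and 50 h is the cap. For 362 of 362 members, ribosomes per mRNA equalled the weighted mean of the fraction names.

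Slopes were fitted to the counts by edgeR 4.0.16 under R 4.3.3 (quasi-likelihood, robust, TMM), on hours or on fraction rank, which assumes that a higher number in the column name is a heavier fraction. Sites, or both partners, needed 60 counts over the 6 libraries. Pairs were fitted over the whole table of pairs, with Benjamini-Hochberg adjustment over it. DESeq2 1.42.0 was an alternative. A slope is relative to the rest of the library. CPM uses library totals.

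Pairs were named by rule: most reads in both partners or in the lower one, longest and shortest overlap, largest ratios, largest called differences in each direction, and pairs with both ends falling or rising. The chromosome 11 and 13 same-strand ends were singled out after their values were seen. A chromosome 18 pair picked by the rule is not reported here. Members and lists were chosen with earlier results of these data known. No mm9 genome or annotation was used, positions were not converted, and no sequences are shown.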

Additional observations from a re-analysis of the deposited data

How the results depend on the processing

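No paired analysis was possible because the controls and the 4 actinomycin D times share only the number 1, and fraction numbers name places in a gradient. Overlapping pairs called after actinomycin D numbered 84, 52 of 83 with 300 counts per partner (62.7%, beside 54.7% of all pairs), and 63 to 83 when single libraries were left out (beside 34.9% to 44.7%). Over the gradient 1 pair was called, 13 by DESeq2, 0 with overlaps up to 300 nt (beside 2.69%), 0 with the strongest in place of the nearest partner (beside 2.67%; 21 and 30 at an unadjusted p under 0.05 by edgeR), and 0 to 14 without single fractions (beside 0.0129% to 8.98%), 14 being 7.53% without fraction 0. Member sites that fell after actinomycin D numbered 208 and those that rose 5 with the file's own factors, and 80 to 105 and 39 to 60 without single libraries (beside 21.1% to 28.4% and 15.5% to 22.0%). Over the gradient, where those factors moved the median slope of all sites to 0.5 log2 per step, 2 members fell (beside 0.876%) and 150 rose (beside 39.4%) with them, 24 fell by DESeq2 (beside 7.08%), and without single fractions 3 to 25 fell and 0 to 11 rose (beside 1.29% to 7.59% and 0.0462% to 3.82%). The cause of these shifts was not tested. Among the named pairs' slope differences after actinomycin D, 2 that were not called changed sign without the 8 h library, both on chromosome 2: over the fits without 1 library they ran from -0.0112 to 0.0536 log2 per h (plus site 174252997) and from -0.156 to 0.0541 (plus site 164665081). Each time and each fraction has 1 library, and lower partners near 30 reads carry wide errors, so a small divergence was not detectable.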
